A study of Mus musculus with 13 samples.

Results

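Alx1, Alx4, Prrx1 and Prrx2 are 4 homeobox genes of the paired type that are known from skeletal and connective tissue mesenchyme, and they were followed here in the developing spine of the mouse. The members were all probe sets whose annotation gave exactly one of these symbols, which made 10 of the 45037 probe sets tested and 4 of 18193 genes. Prrx1 had 6 probe sets, Alx1 had 2, and Alx4 and Prrx2 had 1 each. Alx1 was chosen because its values were higher in mutant than in control vertebrae, so that difference is described without a test, and so is every other contrast of Alx1 that uses vertebral arrays. The study asked how loss of the type II TGF-beta receptor in Col2a-expressing cells alters gene expression in the presumptive intervertebral disc (IVD) and vertebrae of the lumbar spine at E13.5. Both tissues were cut from frozen sections by laser capture, and their RNA was amplified in 2 cycles from 50 ng before hybridization to expression arrays. The IVD captured was mostly presumptive annulus fibrosus, the fibrous ring of the disc.

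The mutants were 4 IVD samples labelled Cre+;Tgfbr2lox/lox and 3 vertebral samples whose genotype the labels spell Cre+;Tgrbr2lox.lox. The controls were 3 IVD and 3 vertebral samples labelled Cre-;Tgfbr2lox/wt, and the design text gives both control tissues as coming from the same mice. In the mutants, Cre was driven by a Col2a promoter, so that exon 2 of Tgfbr2 could be removed only in cells that use it or descend from such cells. The controls carried no Cre and 1 floxed allele, so neither a Cre-positive control nor a control with both alleles floxed was compared. In tissue of this kind, fewer cells that express a gene and less RNA per cell cannot be told apart.

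Paired-type homeodomain proteins bind DNA at short sites with a TAAT core and often bind as dimers on palindromic sites. Alx1, first named Cart1 from a cartilage tumor line, is needed in cranial mesenchyme, and mice without it have an open cranial neural tube. Alx4 acts in limb bud and body wall mesenchyme and restricts signalling at the anterior side of the limb bud. Prrx1 and Prrx2 have overlapping roles in the mesenchyme of the limbs and face, and mice without Prrx1 have skeletal defects that include the vertebral column.

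In GRCm38.p6, Alx1 lies at chr10:103007847-103029549, Alx4 at chr2:93642434-93681341, Prrx1 at chr1:163245119-163315145 and Prrx2 at chr2:30845064-30881251. RefSeq promoter windows of 300 bases, 250 before and 50 after a start, were matched for Prrx1 and Prrx2 among the 4 genes. The palindrome TAATTA, which reads the same on both strands, occurred in the Prrx1 window. It began 173 bases before the start around which that window was cut. That start lies inside the span given for Prrx1, so the palindrome is within this span and not upstream of the whole gene. It is shown because it holds, on each strand, the TAAT core that this protein family binds. The cores of both strands overlap, and whether a dimer could bind there was not tested. The stretch is given from chr1:163313806-163313835 on the minus strand with TAATTA in capitals.
Prrx1: gcaagggaatgaTAATTAgacctttatttt
TAATTA occurred in 1738 of 32851 RefSeq windows (5.29%), and the shorter TAAT, which overlaps it and was searched on both strands, in 19064 (58%). Neither set of letters was in the Prrx2 window. A match describes the letters of the window and no binding was measured here.

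The values were log2 signals given relative to each probe set's own median, so they compare arrays for a given probe set and hold no level of expression, and no probe set can be ranked against another. The spread of values was larger on the array of mutant vertebrae 1 (SD 0.74 over all probe sets) than on the other 12 arrays (0.33 to 0.52), and that array held the highest value for 25.9% of all probe sets and for 4 of the 10 members. Transcripts of fetal liver were high on 4 arrays, with list means between 2.51 and 4.97 in mutant IVD 3 and 4, control IVD 1 and control vertebrae 1, against at most 0.22 on the other 9. Neuronal transcripts were high in mutant IVD 3 (3.48) and control vertebrae 3 (2.92). The tissue labels were checked on marker lists. In both genotypes IVD exceeded vertebrae for all 10 disc and sclerotome genes (median differences 1.12 in mutants and 1.15 in controls), although several had been picked by the study on these samples. Of 15 cartilage genes, IVD was below vertebrae for 15 in mutants and for 13 in controls. These are group means, and mutant IVD 3 did not follow them on the disc and sclerotome list. Its mean there was -1.18, below every vertebral array (-0.94 to -0.06), and its cartilage list mean (-0.05) was the highest of mutant IVD. The mean of the Tgfbr2 probe sets differed by 0.11 between mutant and control IVD and by -0.24 between mutant and control vertebrae, and the exons they cover were not analysed here.

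**Figure D1:**
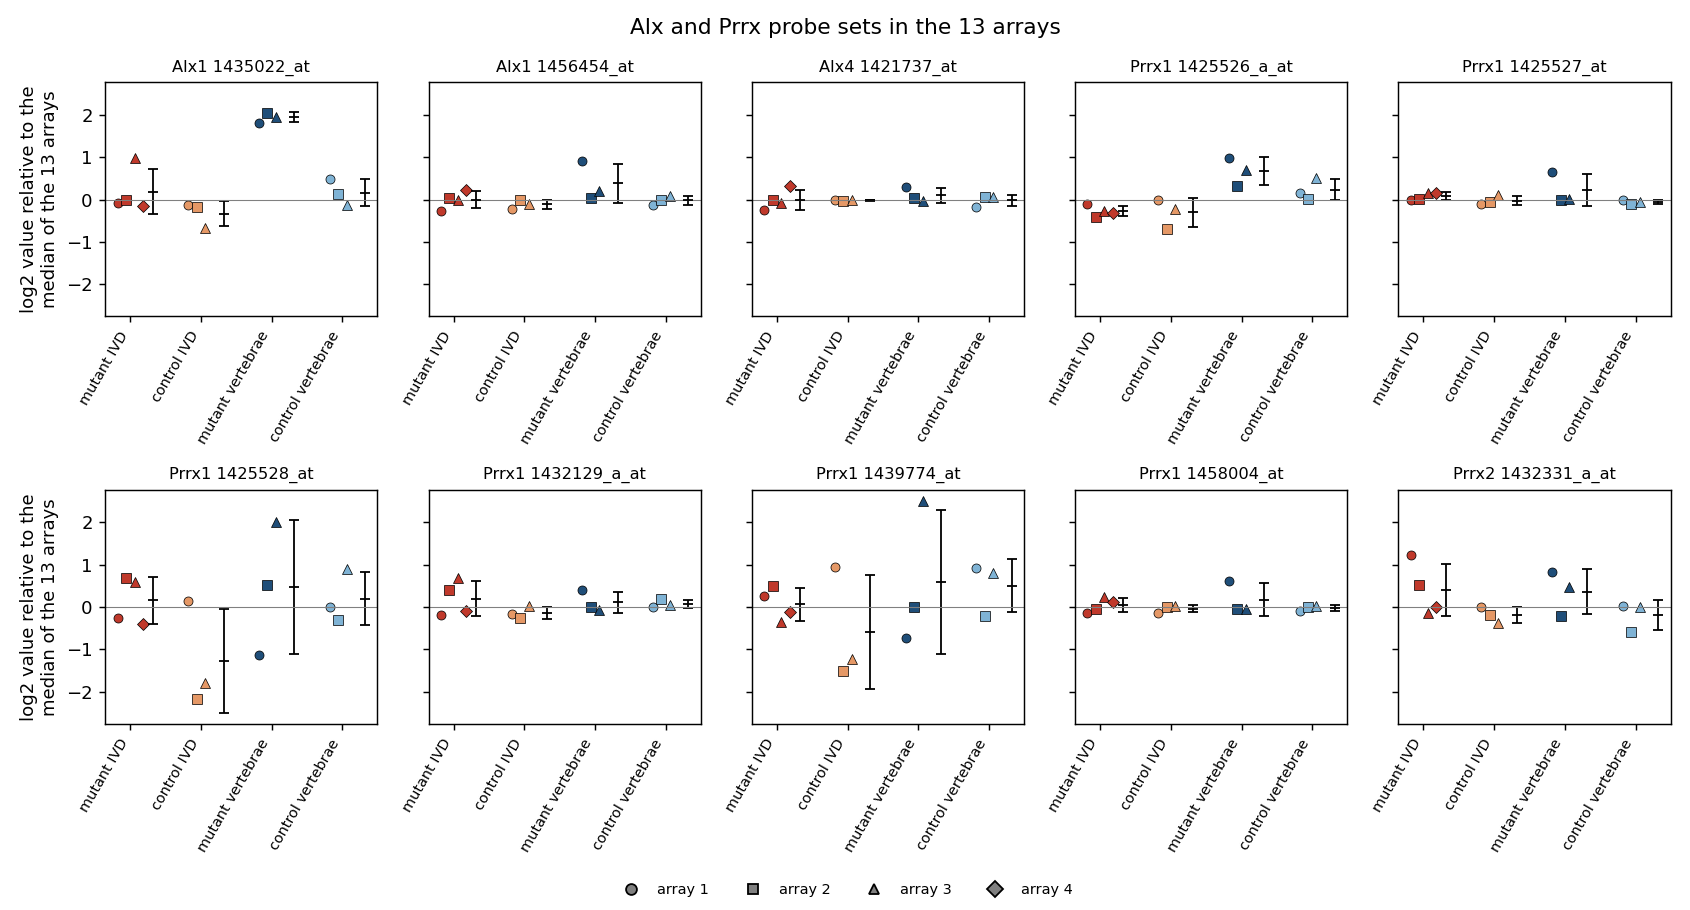
Log2 value relative to the probe set's median over 13 arrays (y axis) for the 10 probe sets of Alx1, Alx4, Prrx1 and Prrx2, with 1 point per array in mutant IVD (n = 4), control IVD, mutant vertebrae and control vertebrae (n = 3 each), and the group mean with its SD to the right of the points. Alx1 probe set 1435022_at stood between 1.82 and 2.05 in the 3 mutant vertebral arrays and at 0.97 or below in the other 10.

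Alx1 had its highest values in mutant vertebrae, but mutant and control vertebrae separated in only 1 of its 2 probe sets. Probe set 1435022_at was at 1.82, 2.05 and 1.95 in mutant vertebrae, against 0.49, 0.14 and -0.13 in control vertebrae. The mutant arrays did not overlap the controls and had the smaller spread (SD 0.12 in mutant and 0.31 in control vertebrae, n = 3 each). The difference was 1.78 on the log2 scale, or 3.42-fold, and it is the value for which the gene was chosen. Arrays of mutant vertebrae lay wholly above those of control vertebrae for 3.63% of all probe sets.

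The second Alx1 probe set, 1456454_at, read 0.90, 0.03 and 0.21 in mutant vertebrae and -0.14, -0.02 and 0.09 in control vertebrae. These groups overlapped, and the high value came from mutant vertebrae 1, the array with the wide spread. The difference of this probe set was 0.40, and the mean of both Alx1 probe sets differed by 1.09. Across the 13 arrays the 2 probe sets correlated with r = 0.55. They read the same gene symbol but may not read the same transcripts, and which one follows the gene more closely was not tested.

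The sex of the embryos moved with genotype in these samples, since the list mean of Y-linked transcripts was between 1.55 and 2.35 on 5 of the 7 mutant arrays and below 0 on the other 2 and on all 6 control arrays. The Alx1 value of 1.95 in mutant vertebrae 3, where Y-linked transcripts were low as in the controls, lay between the values of mutant vertebrae 1 and 2, where they were high. With the Y-linked list mean as a covariate the Alx1 difference in vertebrae was 2.14. The covariate had a common slope over all groups, which also draws on mutant IVD 3 (Y-linked -0.02, Alx1 1435022_at 0.97). The value of 2.14 is thus no adjustment made within vertebrae alone. The part of embryo sex in these values, which are those that picked the gene, was not tested. Transcripts of cartilage also moved with these groups. Their list mean was between 0.30 and 0.99 in mutant vertebrae and between -0.10 and 0.78 in control vertebrae, and all 15 cartilage genes had a mean difference above 0 between them (median 0.30). Alx1 1435022_at correlated over the 13 arrays at r = 0.67 with the cartilage list mean and at r = -0.72 with that of the disc and sclerotome list, values that share the arrays and the capture. The part of cartilage content in the Alx1 difference was not tested.

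In the IVD, which shares no array with the contrast that picked Alx1, 1435022_at was at -0.09, 0.00, 0.97 and -0.15 in mutants and at -0.13, -0.18 and -0.68 in controls. The groups overlapped, and mutant IVD 3 stood alone above the rest. The difference of 0.51 (SE 0.27, 95% interval -0.08 to 1.11) did not pass the test (limma, adjusted p = 0.999967 over all probe sets). Sharing no array did not make this contrast independent of the choice of Alx1. The design text gives control IVD and control vertebrae as coming from the same mice. The SE and p also pooled the spread of the vertebral arrays, since all groups were fitted together. With the IVD groups fitted alone, the same difference had an SE of 0.30 (limma, adjusted p = 0.997119). Leaving out mutant IVD 3 gave a difference of 0.25, leaving out control IVD 3 gave 0.34, and the Y-linked list mean as a covariate gave 0.94. Mutant IVD 3 also carried the highest neuronal list mean (3.48) and the lowest disc and sclerotome list mean (-1.18) among mutant IVD. Its cartilage list mean (-0.05) was the highest of that group. Its Y-linked list mean was -0.02, against 2.12, 2.20 and 1.90 in mutant IVD 1, 2 and 4, so the covariate value above leans on this array. The part of these list means in the Alx1 value was not tested.

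By group mean, Alx1 1435022_at was ordered as mutant vertebrae (1.94 ± 0.12), mutant IVD (0.18 ± 0.53, n = 4), control vertebrae (0.17 ± 0.31) and control IVD (-0.33 ± 0.30), with SD and n = 3 unless given. The mean of mutant vertebrae exceeded the next mean by more than the SD of either group, and the means of mutant IVD and control vertebrae lay within their SD of each other. The mean of control IVD was below that of control vertebrae by more than either SD. Their arrays did not overlap, as was so with IVD below vertebrae for 3.9% of all probe sets. The nearest arrays of both groups read -0.13 and differed only in later decimals. IVD minus vertebrae was -1.76 in mutants and -0.50 in controls. In controls the IVD value was below the vertebral value of the same number in each of 3 pairs, by -0.62, -0.32 and -0.55. The genotype difference in IVD minus that in vertebrae was -1.26, a value that also uses the arrays that picked the gene.

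Alx4 varied less than most probe sets on the array. Its probe set 1421737_at read -0.24, 0.00, -0.09 and 0.32 in mutant IVD and -0.02, -0.04 and 0.00 in control IVD. Its values in vertebrae were 0.30, 0.03 and -0.03 in mutants and -0.17, 0.05 and 0.06 in controls. All 4 groups overlapped, and the SD over 13 arrays was 0.16, smaller than in all but 7.61% of probe sets. The largest of the tested differences of Alx4 in size was -0.11 (SE 0.16, 95% interval -0.45 to 0.24) between mutant IVD and mutant vertebrae. The difference between mutant and control IVD was 0.02 (SE 0.16, 95% interval -0.33 to 0.36), and neither passed the test. With no level in these values, a gene that hardly changed and one that the probe set did not detect look alike.

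Prrx1 was read by 6 probe sets that did not behave alike. 3 of them varied more than the median probe set, and 3 varied less. The widest were 1425528_at (SD 1.13 over the 13 arrays) and 1439774_at (SD 1.05), which varied more than 98.5% and 98% of all probe sets. They correlated with each other at r = 0.88 over 13 arrays and at 0.87 without mutant vertebrae 1. Probe sets 1425527_at and 1458004_at (SD 0.20 each) correlated at r = 0.93, which became 0.67 without mutant vertebrae 1. Correlations between the wide pair and this narrow pair were between -0.24 and -0.41 over 13 arrays, and between -0.41 and 0.02 without mutant vertebrae 1. The sixth probe set, 1432129_a_at (SD 0.27), was highest in mutant IVD 3 (0.69) and lowest in control IVD 2 (-0.25). Probe sets 1425526_a_at, 1425527_at and 1425528_at were designed on the same source sequence, and their SD nevertheless was between 0.20 and 1.13.

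**Figure D2:**
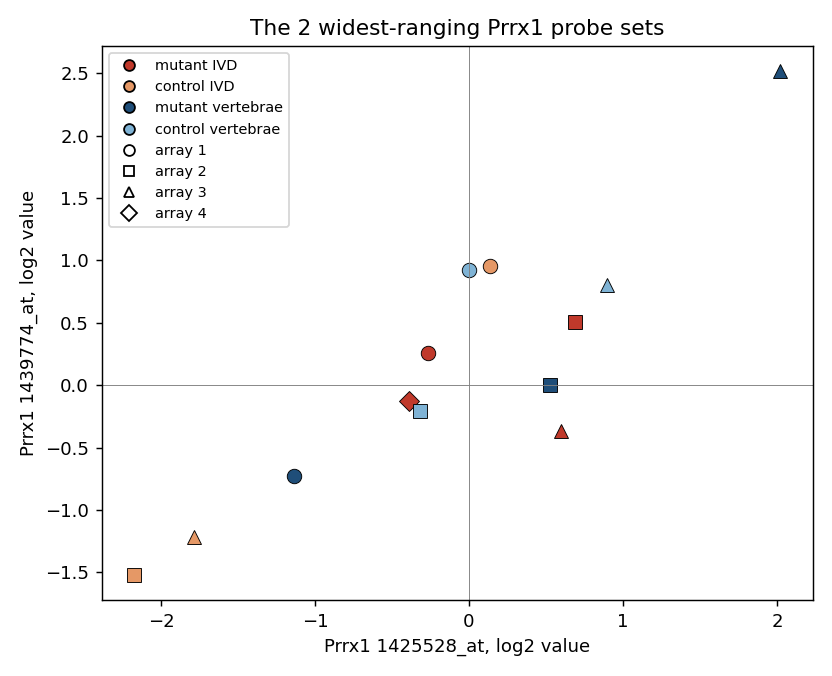
Log2 value relative to the median of each probe set for Prrx1 1439774_at (y axis) against Prrx1 1425528_at (x axis), 1 point per array, colored by group with mutants before controls. The 13 points followed a rising line (r = 0.88), with control IVD 2 and 3 at the low end and mutant vertebrae 3 at the high end.

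Relative to its error, the IVD mean of Prrx1 lay furthest below the vertebral mean at probe set 1425526_a_at, which is marked as reading more than 1 transcript of the gene. In mutants it read -0.10, -0.41, -0.28 and -0.31 in IVD against 0.99, 0.32 and 0.70 in vertebrae. The mutant tissues did not overlap, as was so with IVD below vertebrae for 3.21% of all probe sets, and the difference was -0.94 (SE 0.21, 95% interval -1.40 to -0.49). Its adjusted p of 0.219 (limma) did not pass, and 7 of 45037 probe sets (0.0155%) passed in this comparison. The adjusted p lay between 0.0794 and 0.962 over the alternatives. The value in mutant vertebrae 1 was the highest of the 13, and without that array the difference was -0.79.

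In controls the same probe set read 0.00, -0.69 and -0.23 in IVD against 0.16, 0.02 and 0.50 in vertebrae. The control tissues did not overlap either, as was so with IVD below vertebrae for 3.9% of all probe sets. The difference of -0.54 (SE 0.22, 95% interval -1.02 to -0.05) did not pass (limma, adjusted p = 0.999999). All 3 same-numbered pairs had the lower value in IVD, by -0.16, -0.71 and -0.73. With the pairs as a random block the adjusted p was 0.323.

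The 2 wide Prrx1 probe sets showed a larger and less even tissue difference in controls. Probe set 1425528_at read 0.14, -2.18 and -1.78 in control IVD against 0.00, -0.31 and 0.90 in control vertebrae, and 1439774_at read 0.96, -1.52 and -1.22 against 0.92, -0.21 and 0.81. Control IVD 2 and 3 were far below the vertebrae of the same number, while control IVD 1 was level with control vertebrae 1. The pair differences were 0.14, -1.86 and -2.68 for 1425528_at and 0.03, -1.32 and -2.02 for 1439774_at. Control IVD 1 and control vertebrae 1 were the 2 control arrays high in liver transcripts (4.78 and 4.97), and control IVD 1 was also high in skeletal muscle transcripts (2.23). Their part in the Prrx1 values was not tested.

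**Figure D3:**
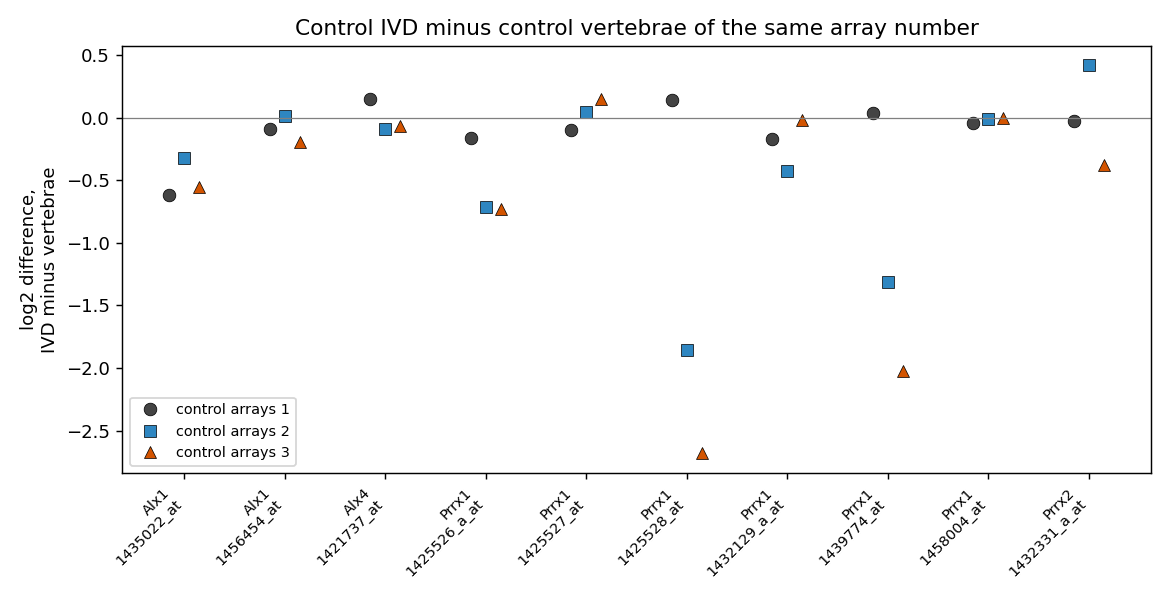
Difference in log2 value, control IVD minus control vertebrae of the same array number (y axis), with 1 point per pair (3 pairs) for each member probe set (x axis). For Prrx1 1425528_at and 1439774_at pairs 2 and 3 lay far below 0 and pair 1 lay near 0.

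The mean difference of 1425528_at between control IVD and control vertebrae was -1.47 (SE 0.75, 95% interval -3.10 to 0.16, limma adjusted p = 0.999999). That of 1439774_at was -1.10 (SE 0.78). Neither passed the test. In mutants the IVD mean of 1425528_at differed from the vertebral mean by -0.31 (SE 0.70), and this value took both signs when single arrays were left out (0.46 without mutant vertebrae 3 and -1.12 without mutant vertebrae 1). For the mean of all 6 Prrx1 probe sets, IVD minus vertebrae was -0.33 in mutants (SE 0.24, limma adjusted p = 0.782 over all genes) and -0.55 in controls (SE 0.25, adjusted p = 0.99997). These became -0.086 in mutants without mutant vertebrae 3 and -0.36 in controls without control IVD 2.

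Between genotypes, the wide probe set 1425528_at read -0.26, 0.69, 0.60 and -0.39 in mutant IVD, against 0.14, -2.18 and -1.78 in control IVD. The groups overlapped through control IVD 1. The difference of 1.43 (SE 0.70, 95% interval -0.10 to 2.96) was the largest of any member in this contrast and did not pass (limma, adjusted p = 0.999967). Its size was 2.14 with control IVD 1 left out and 0.98 with control IVD 2 left out. Probe set 1439774_at differed by 0.66 (SE 0.73), whereas 1425526_a_at differed by 0.03 (SE 0.21, 95% interval -0.42 to 0.49), so the Prrx1 probe sets gave no single size for a genotype difference in IVD. The mean of the 6 probe sets differed by 0.44 (SE 0.24, limma adjusted p = 0.999894 over all genes), and by 0.70 without control IVD 1, 0.25 without control IVD 2, 0.71 without the 4 arrays high in liver transcripts and 0.75 with the Y-linked list mean as a covariate.

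In vertebrae, where no member was tested between genotypes, 1425526_a_at read 0.99, 0.32 and 0.70 in mutants and 0.16, 0.02 and 0.50 in controls. The groups overlapped, and the difference was 0.44. The values of 1425528_at in mutant vertebrae were -1.14, 0.53 and 2.02, a wider range than in control vertebrae, and its mean difference of 0.28 became 1.08 without mutant vertebrae 1 and -0.50 without mutant vertebrae 3. The remaining Prrx1 probe sets differed by between 0.04 and 0.28.

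Prrx2, the close relative of Prrx1, had the higher group mean in mutants in both tissues. Its probe set 1432331_a_at was at 1.23, 0.52, -0.14 and 0.01 in mutant IVD against 0.00, -0.18 and -0.38 in control IVD. The groups overlapped, with mutant IVD 1 highest of all 13 arrays. The difference was 0.59 (SE 0.33, 95% interval -0.14 to 1.32) and did not pass (limma, adjusted p = 0.999967). It was 0.31 without mutant IVD 1 and 1.15 without the 4 arrays high in liver transcripts. In vertebrae it read 0.82, -0.21 and 0.48 in mutants and 0.03, -0.59 and 0.00 in controls, a difference of 0.55 with overlapping arrays that was 0.32 without mutant vertebrae 1 and 0.84 without mutant vertebrae 2. Between tissues its means lay close together, with a difference of 0.04 (SE 0.33, 95% interval -0.69 to 0.77) between mutant IVD and mutant vertebrae and of 0.00 (SE 0.36, 95% interval -0.77 to 0.78) between control IVD and control vertebrae. Its pair differences in controls were -0.03, 0.42 and -0.38, so the small mean held values of both signs.

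**Figure D4:**
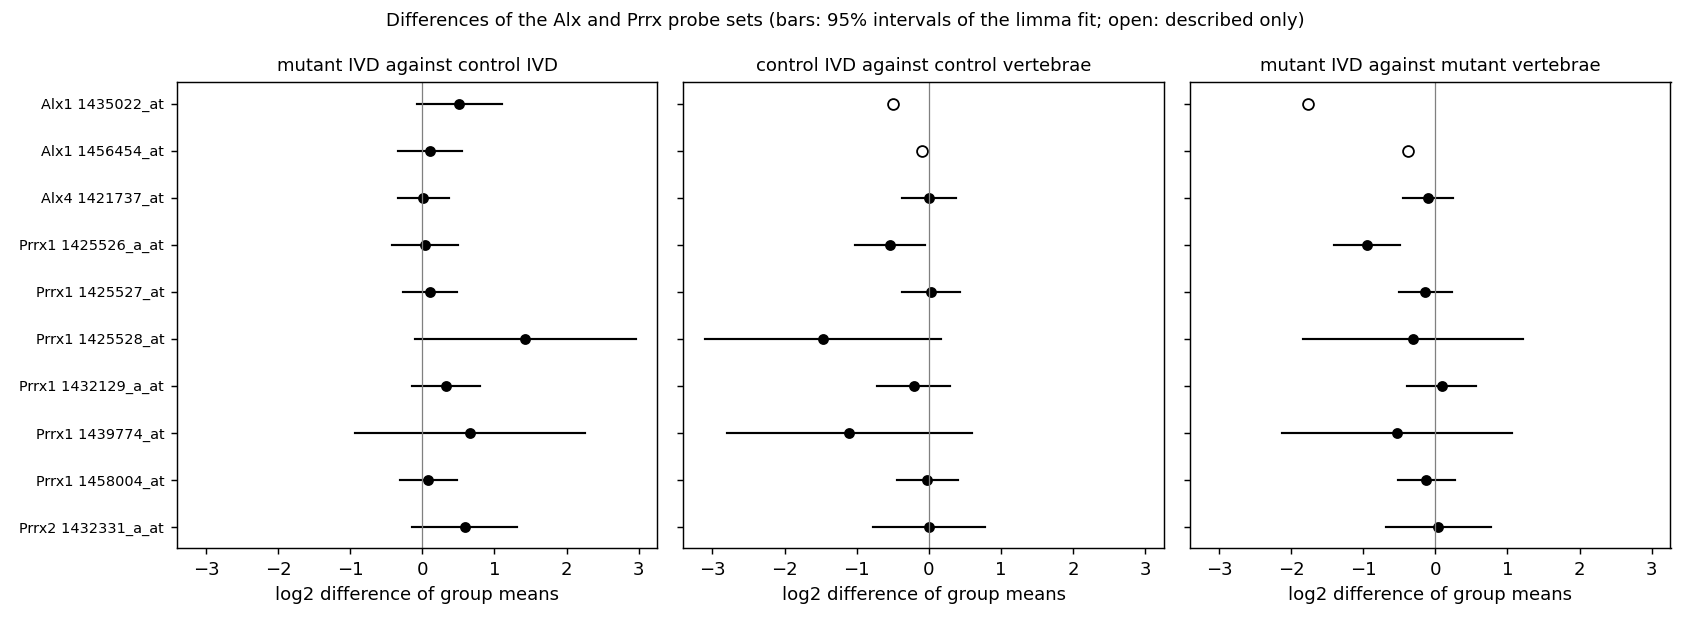
Difference in log2 value (x axis, first group minus second) for each member probe set in mutant IVD against control IVD, control IVD against control vertebrae and mutant IVD against mutant vertebrae, with 95% intervals from the limma fit, and open points without intervals where Alx1 is only described. All 10 probe sets lay above 0 for mutant IVD against control IVD, and the interval of each crossed 0.

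Over the 4 genes, no member passed the test in any comparison in which it was tested. For mutant against control IVD, 0 of 10 member probe sets and 0 of 45037 probe sets overall (0%) had an adjusted p under 0.05, and 0 members and 1411 probe sets (3.13%) had an unadjusted p under 0.05. All 10 members were higher in mutant than in control IVD by their means, as were 59.6% of all probe sets, and none had arrays that did not overlap (4.61% of all probe sets). In the vertebrae all 10 were again higher in mutants (58.8% of all probe sets), which is given without a test. These probe sets come from 4 genes, share the arrays and are not independent.

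Between tissues the signs of the tested members were mostly those of 1 gene, since 6 of the 8 probe sets belonged to Prrx1. Some were near 0, such as -0.0012 for Alx4 and -0.02 for Prrx1 1458004_at in controls. The counts that follow are therefore no result about the 4 genes as a family. Of the 8 member probe sets of Alx4, Prrx1 and Prrx2, 6 had a lower mean and 2 a higher mean in IVD in each genotype, where 46.7% of all probe sets in mutants and 46.3% in controls were higher in IVD. In mutants 1 of these 8 had an unadjusted p under 0.05, against 3634 of 45037 probe sets (8.07%), and in controls 1 of 8, against 1105 (2.45%). No probe set in the whole table passed the adjusted threshold in controls (0%), and 42 passed once the arrays of the same mice were treated as a random block, none of them among these 8. No probe set passed the adjusted threshold (0%) in the test of whether the genotype difference itself differed between the tissues, where 0 of 8 members had an unadjusted p under 0.05 (1.37% of all probe sets), and the largest estimate was 1.16 for Prrx1 1425528_at (SE 1.03, 95% interval -1.08 to 3.39).

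Other genes of the paired-type family were measured for comparison. The list held 23 genes, 17 of which had probe sets, and none passed the test in any of the 5 comparisons. Over all 18193 genes, 5 passed (0.0275%) for mutant IVD against mutant vertebrae and 0 (0%) in the other 4 comparisons. Its median difference was 0.10 for mutant against control IVD and 0.09 for mutant against control vertebrae, against 0.04 and 0.03 over all genes. For IVD against vertebrae it was -0.13 in mutants and -0.09 in controls, against 0.00 and -0.01 over all genes, with 13 and 14 of the 17 genes lower in IVD. The family list mean was 0.62 in mutant vertebrae 1, the array with the wide spread, and -0.13 and -0.01 in mutant vertebrae 2 and 3. Both contrasts with mutant vertebrae include that array. The smallest p values within the list belonged to Prrxl1, now called Drgx and known from sensory neurons, and to Uncx, a factor of the posterior sclerotome, in mutant against control IVD (differences 0.62 and 0.55). In control IVD against control vertebrae they belonged to Phox2a, a factor of autonomic neurons (-0.89, SE 0.42, limma adjusted p = 0.99997), and to Shox2, a limb skeletal factor (-0.38). In mutant IVD against mutant vertebrae they belonged to Mixl1 (-0.32) and Uncx (0.52), and in the vertebrae between genotypes to Mixl1 (0.33) and Isx (0.29). In mutant vertebrae 1, 2 and 3, Mixl1 read 0.76, 0.00 and 0.17, and Isx read 0.61, -0.05 and 0.01. Phox2a read -0.08, 0.12 and 1.90 in control vertebrae 1, 2 and 3. Prrxl1 read 0.00, -0.01, 1.40 and 0.22 in mutant IVD 1, 2, 3 and 4. Control vertebrae 3 and mutant IVD 3 were the arrays high in neuronal transcripts (list means 2.92 and 3.48). The part of neuronal content in these values was not tested.

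Transcription factors of skeletal and somitic mesenchyme outside this family were listed as well. Of 18 listed genes 17 were measured and none passed the test in any of the 5 comparisons. Their median difference between IVD and vertebrae was 0.27 in mutants and 0.07 in controls, with 12 and 11 of 17 genes higher in IVD. Meox1, a homeobox gene of the somites, had the smallest p in both, with 0.61 in mutants (SE 0.16, limma adjusted p = 0.270) and 0.60 in controls (SE 0.17, adjusted p = 0.99997). Gli3, a mediator of hedgehog signalling, followed with 0.66 in mutants (SE 0.23, limma adjusted p = 0.420) and 0.42 in controls. Between mutant and control IVD the smallest p belonged to Tbx18, a factor of the anterior sclerotome (0.56, SE 0.25, limma adjusted p = 0.999894), and the next to Twist1, a mesenchymal regulator (0.60). In vertebrae it was Hand2 (-0.67) and Twist2 (0.44) between mutants and controls.

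Tnc, which encodes tenascin C and is known from other systems as a target of Prrx1, differed by 0.998 between mutant IVD and mutant vertebrae and by 0.68 between control IVD and control vertebrae, the opposite sign to the Prrx1 mean, and neither difference passed the test. Of 13 measured connective tissue genes 11 were higher in IVD in each genotype, with median differences of 0.83 in mutants and 0.68 in controls. Tbx15, a mesenchymal T-box gene, differed by -0.05 in mutants and by 0.04 in controls.

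The genes whose means over probe sets ran most like each member over the 13 arrays were named as a description, since the highest of many correlations is high by selection. For Alx1 these were Epb41l2, a membrane skeleton protein (r = 0.956), Cpe, a peptide-processing enzyme (0.926), and Tmem8b (0.902). They kept r between 0.877 and 0.940 without mutant vertebrae 1. For Prrx1 they were Wnt3 (0.933), Brinp1 (0.836) and Tecrl (0.812), but for its widest probe set alone they were Satb1 (0.902), Bmp5 (0.843) and Zfyve19 (0.827), a different set. For Prrx2 they were Il17rd, an inhibitor of FGF signalling (0.871), Mrtfa, a coactivator of SRF (0.870), and Snai1, a repressor of epithelial genes (0.850). For Alx4 they were Tprg (0.937), Cks1brt (0.931) and Cpsf4l (0.930). No member was among the 3 nearest genes of another member.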

How the data were processed

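RNA of laser-captured lumbar IVD and vertebrae at E13.5 was measured on 13 Affymetrix whole-genome mouse arrays, 1 per sample. The deposited values were log2 signals that the authors had made with RMA. In the file each probe set's median over the arrays was exactly 0, so values are differences between arrays, and signal over background is unknown. Of 45101 probe sets, 64 controls were left out. The platform annotation gave 1 symbol for 34945 probe sets, several for 932 and none for 9160, and gene means used the first kind only. All 13 arrays and 4 groups were fitted together with limma 3.58.1 (lmFit and eBayes, R 4.3.3), with two-sided tests, Benjamini-Hochberg adjustment over all 45037 probe sets (gene means over 18193 genes) and a threshold of 0.05. The method was tested on simulated data. The members, lists (129 of 145 genes measured) and tests were chosen with earlier results of these data known. The named genes were all members, the 3 genes most like each, and in the family and mesenchyme lists the 2 smallest p values per comparison where none passed, with Tgfbr2, Tnc, Tbx15, Gli3 and Shox2. Control IVD and vertebrae of the same number deviated together (r = 0.80, 0.57 and 0.57), and the design text gives them as the same mice, so they were taken as pairs. Mutant numbers did not (r between -0.41 and 0.24). Precision is limited by how few arrays there were, and p values measure the spread between these samples. Alternatives included blocks, quantile normalization, array weights, the unequal variance test of the methods, covariates and leaving out arrays. Figures were drawn with matplotlib 3.10.9.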

Additional observations from a re-analysis of the deposited data

Results flagged for a closer look

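Alx1 1435022_at in mutant IVD 3 stood apart from the other 3 mutant IVD arrays, at 0.97 against -0.09, 0.00 and -0.15. Its gap to the nearest array was 0.865 of the range of the group, above Dixon's critical value of 0.829 for 4 samples, a size that chance reaches in about 5% of groups and that was applied to 12 groups here. The same array had list means of 3.48 for neuronal, 2.51 for liver and -1.18 for disc and sclerotome genes. Its list means were -0.05 for cartilage genes, the highest of mutant IVD, and -0.02 for Y-linked genes, the lowest of mutant IVD. The part of these list means in the Alx1 value was not tested.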

How the results depend on the processing

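No tested member probe set passed the adjusted threshold under any alternative in the 4 comparisons where members were tested. Alx1 was counted only in mutant against control IVD and was left out of the count in the others. Over all probe sets, the 0 calls for control IVD against control vertebrae became 42 with the random replicate block and 2 with array weights. The 7 calls for mutant IVD against mutant vertebrae became 0 with the 2 groups alone, 0 with the fixed replicate block, 0 with the unequal variance test, 1 with a variance trend and robust estimation, 3 with the Y-linked covariate, 29 without the 4 arrays high in liver transcripts, 55 with array weights and 61 with the neuronal covariate, and between 0 (without mutant vertebrae 2 or mutant IVD 1, 2 or 4) and 177 (without mutant IVD 3) when single arrays were left out. The fixed block left mutant IVD 4 without a partner, so that array did not inform these differences. With all arrays kept or the liver arrays left out, signs turned only for differences near 0. For Alx4, mutant minus control IVD (0.02) became -0.090 with the fixed replicate block, -0.038 with quantile normalization, -0.061 with the Y-linked covariate and -0.10 without the liver arrays, control IVD minus control vertebrae became 0.013 with the neuronal covariate, and with array weights mutant IVD minus mutant vertebrae became 0.0028 and the interaction 0.028. Prrx1 1425526_a_at in mutant minus control IVD (0.03) became -0.066 with the neuronal covariate. Prrx2 in control IVD minus control vertebrae (0.00) became -0.029 with quantile normalization and -0.015 with the neuronal covariate. Leaving out single arrays gave -0.090 to 0.10 for Alx4 and -0.16 to 0.19 for Prrx1 1425526_a_at in mutant minus control IVD, -0.077 to 0.040 for Alx4 and -0.20 to 0.11 for Prrx2 in control IVD minus control vertebrae, -1.12 to 0.46 for Prrx1 1425528_at and -0.25 to 0.27 for Prrx2 in mutant IVD minus mutant vertebrae, and -0.25 to 0.27 for Prrx2 in the interaction. Of the other member values, 298 under the alternatives kept their direction and side of the threshold where tested, or stayed within the spread where only described. Another 10 described values moved by more than the spread, all of them Alx1 values that kept their sign. Of these, Alx1 1435022_at in mutant minus control vertebrae (1.78) became 2.19 with quantile normalization and 2.14 with the Y-linked covariate. With single arrays left out 254 stayed within the spread or on their side of the threshold, though in mutant minus control vertebrae Prrx1 1425528_at became -0.50 and the Prrx1 mean became -0.023 without mutant vertebrae 3. The causes were not tested. Dim probe sets could not be filtered out because the values hold no level.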
